A study of Homo sapiens with 4 samples.

Results

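The mTOR axis genes were followed here as 10 genes chosen by name for their place in or next to the mTOR signalling pathway: MTOR, RPTOR, IGF1R, FKBP5, RRAGD, EIF4EBP1, TSC2, ULK1, DEPTOR and RICTOR. They were 10 of 19775 genes that had a probe set annotated to them alone on the arrays. Together they had 23 such probe sets, and no probe set named a member beside another gene. A probe set is a group of short probes for 1 transcript, and one that reached 6 on the log2 scale on any array was taken as measured. By that limit 19 of the 23 probe sets, and all 10 genes, were measured.

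The cells were SUM159, an established human breast cancer line of mesenchymal character that lacks hormone receptors, carrying the pTRIPZ construct from which doxycycline induces miR-100. Both fractions came from flow sorting by aldehyde dehydrogenase (ALDH) status, which is used to enrich stem-like cells of breast tumours. There were 4 groups of 1 array each, namely ALDH-positive cells with DOX, ALDH-positive control cells, ALDH-negative cells with DOX and ALDH-negative control cells. The controls carried the construct too, and cells without it were not analysed here. Titles of the DOX samples and the protocol give doxycycline and a culture of 10 h in suspension, and the source names give 10 h for all samples. The sample descriptions instead give doxorubicin and 13 h, so the treated cells are called DOX cells. The question stated for the series is which transcripts miR-100 acts on in stem-like and other cells. With 1 array a group, a difference between arrays has no replicate check and no p-value.

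The kinase mTOR works in a pair of complexes. With raptor (RPTOR) it forms mTORC1, which promotes protein synthesis and holds back autophagy when amino acids and growth factors are present. With rictor (RICTOR) it forms mTORC2, which phosphorylates AKT and related kinases. Growth factor signals arrive through receptors such as IGF1R and are relayed by the TSC complex, and amino acid signals arrive through the Rag GTPases at the lysosome. MTOR, RPTOR, IGF1R and FKBP5 have been reported as targets of the miR-99/100 family in other cells. A microRNA binds its targets mainly through its seed, bases 2 to 8 from its 5′ end, and lowers their mRNA or their translation.

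The mature miR-100-5p is the agent that the construct is meant to supply, so its sequence is shown with those of the other mature human miRNAs of the same seed, which is in capitals. The RefSeq table holds 2545 mature human miRNAs, of which these 3 share it.
hsa-miR-100-5p: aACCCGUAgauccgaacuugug
hsa-miR-99a-5p: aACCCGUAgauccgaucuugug
hsa-miR-99b-5p: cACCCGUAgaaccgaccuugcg
Counted from the 5′ end, miR-99a-5p differs from miR-100-5p by A16U alone, and miR-99b-5p by A1C, U11A, A16C and U21C. The 7 bases complementary to the seed, 5′ UACGGGU 3′, make up the core of a canonical site for all of them. In build GRCh38.p14 miR-100-5p lies at chr11:122152275-122152296 on the minus strand. The arrays do not measure mature miRNAs, so its induction was not checked, and no transcript sequences were available here to look for sites in the members.

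The arrays themselves set the scale of what could be seen. The ALDH-positive DOX and control arrays correlated at r = 0.983 over all probe sets, and the ALDH-negative DOX and control arrays at r = 0.996. From the 5th to the 95th percentile, gene differences between DOX and control spanned -0.69 to 0.89 on the log2 scale in ALDH-positive cells and -0.27 to 0.31 in ALDH-negative cells. In ALDH-positive cells the median of all genes stood at 0.12, against 0.00 in ALDH-negative cells, so member values in that pair are relative to a shift. All 7 fixed markers of a mesenchymal breast cancer line (VIM, CD44, AXL, ZEB1, FN1, CAV1 and SPARC) exceeded a level of 6 on every array. EPCAM, CDH1, ESR1, PGR and ERBB3, 5 of 7 luminal and epithelial markers, stayed under 6 on all arrays, as did 5 of the 6 immune markers with a probe set and 4 of 5 endothelial markers. The exceptions were KRT8, measured on all arrays, KRT19, which reached 6.46 in ALDH-negative DOX cells alone, the B-cell gene MS4A1, which reached 6.21 in ALDH-positive DOX cells alone, and the endothelial gene PECAM1. PECAM1 had levels of 7.56 in ALDH-positive DOX, 5.96 in ALDH-positive control, 9.62 in ALDH-negative DOX and 9.77 in ALDH-negative control cells, and its part in the member differences was not tested. In bulk RNA, fewer cells expressing a gene and less RNA per cell cannot be told apart.

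**Figure D1:**
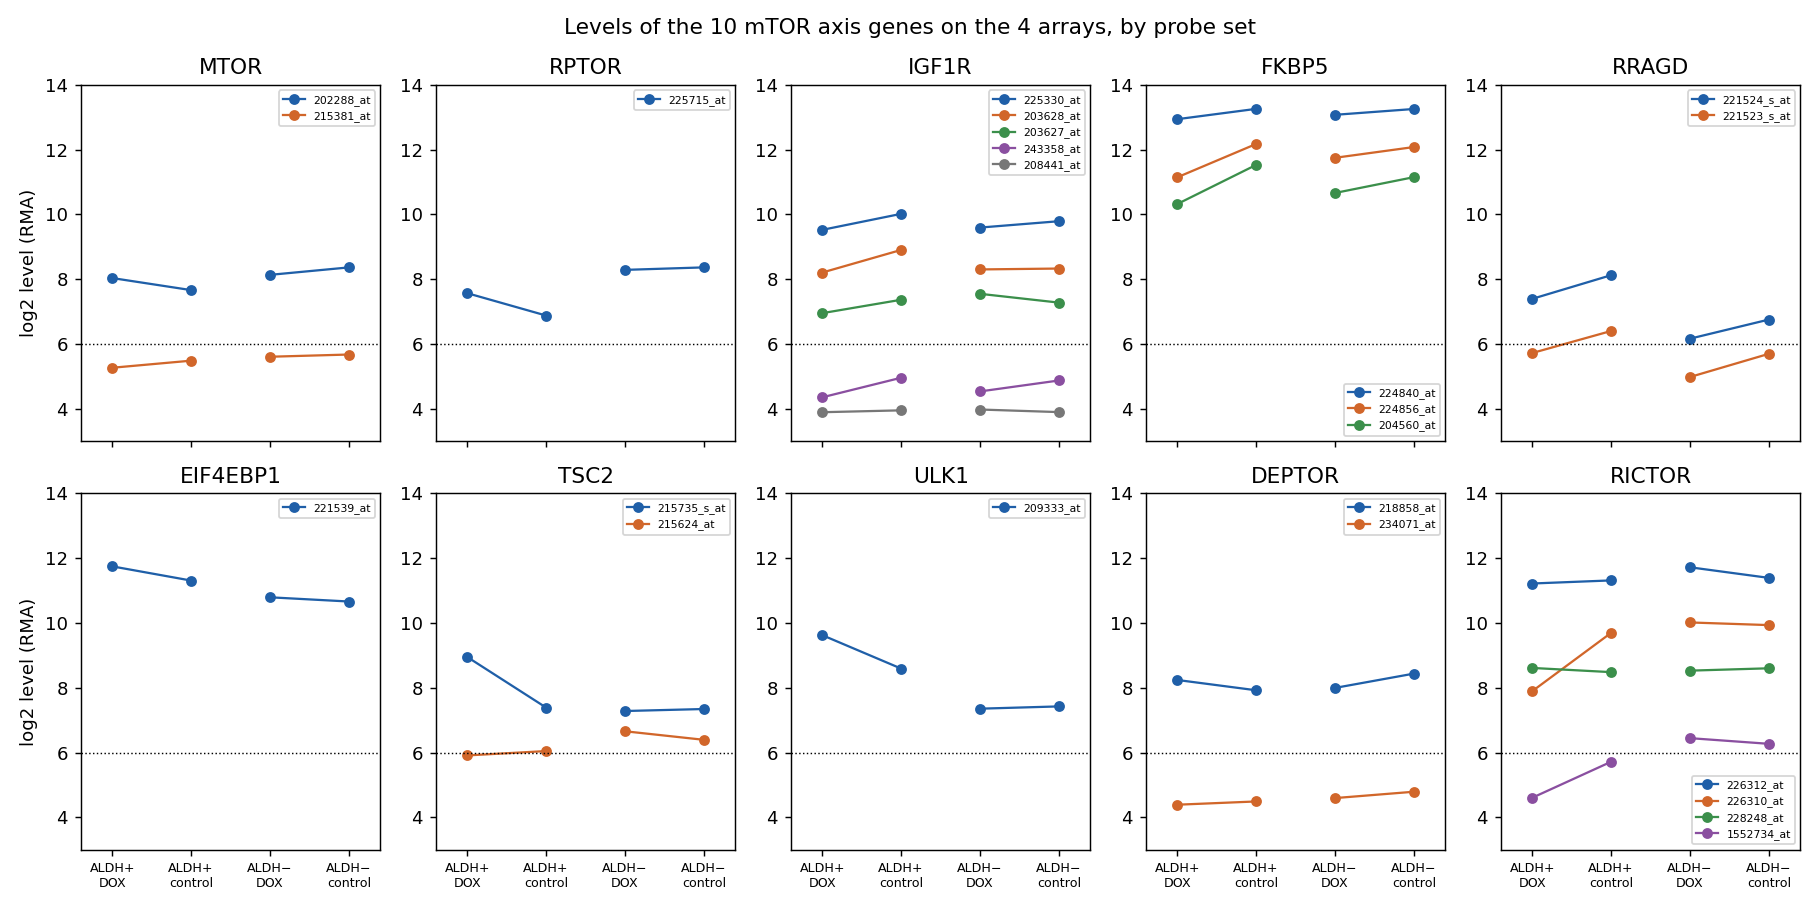
Log2 levels (RMA, vertical axis) of every probe set of the 10 genes on the 4 arrays, with each DOX array joined to its control and a dotted line at the level of 6. ULK1 is highest in ALDH-positive DOX cells (9.63), RPTOR is lowest in ALDH-positive control cells (6.88), and the probe sets of TSC2 and RICTOR part in the ALDH-positive DOX array.

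The kinase and the mTORC1 scaffold were both lowest in ALDH-positive control cells. MTOR, the catalytic subunit of both complexes, stood at 8.04 on the log2 scale in ALDH-positive DOX, 7.67 in ALDH-positive control, 8.14 in ALDH-negative DOX and 8.37 in ALDH-negative control cells. Its DOX difference was thus 0.37 in the ALDH-positive fraction and -0.23 in the ALDH-negative one, and its ALDH difference was -0.10 in DOX cells and -0.70 in control cells. These values come from probe set 202288_at, since the other, 215381_at, stayed between 5.27 and 5.68, under the limit. RPTOR, the raptor subunit that brings substrates to mTORC1, had a level of 7.57 in ALDH-positive DOX, 6.88 in ALDH-positive control, 8.29 in ALDH-negative DOX and 8.37 in ALDH-negative control cells. Both ALDH-positive arrays lay below both ALDH-negative arrays. The ALDH difference of RPTOR was -0.72 in DOX cells and -1.49 in control cells, where 1.47% of all genes lay lower. Of the members reported as targets of the miR-99/100 family, MTOR and RPTOR stood at 0.37 and 0.69 with DOX in ALDH-positive cells. The other such members, IGF1R and FKBP5, were below 0 there on every measured probe set, from -0.70 to -0.41 and from -1.21 to -0.32. In ALDH-negative cells MTOR differed by -0.23, with 6.92% of all genes lower, and RPTOR by -0.08.

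The ALDH-positive DOX array of DEPTOR was above its control, and the ALDH-negative one was below. DEPTOR, an inhibitor bound to mTOR in both complexes, had a level of 8.24 in ALDH-positive DOX, 7.92 in ALDH-positive control, 8.0 in ALDH-negative DOX and 8.44 in ALDH-negative control cells. Its DOX difference was 0.32 in ALDH-positive cells and -0.44 in ALDH-negative cells, and 1.46% of all genes were lower than that in the ALDH-negative pair. The second DEPTOR probe set, 234071_at, did not exceed 4.79.

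RICTOR, the scaffold that defines mTORC2, had 4 measured probe sets, and they disagreed most where the ALDH-positive DOX array entered the comparison. The brightest, 226312_at, read 11.22 in ALDH-positive DOX, 11.32 in ALDH-positive control, 11.72 in ALDH-negative DOX and 11.39 in ALDH-negative control cells. Probe set 226310_at read 7.90 in ALDH-positive DOX against 9.70 in ALDH-positive control cells, and 10.02 in ALDH-negative DOX against 9.94 in ALDH-negative control cells. Its ALDH-positive DOX value was the lowest of the 4 arrays, and the other 3 lay close together. Another, 228248_at, was level on all arrays, between 8.48 and 8.61. The dimmest, 1552734_at, stood at 4.61 and 5.72 in ALDH-positive DOX and control cells, both under 6, and at 6.45 and 6.27 in ALDH-negative DOX and control cells. The DOX difference of RICTOR in ALDH-positive cells was therefore -0.10, -1.80, 0.13 and -1.11 by probe set, a mean of -0.72 ± 0.90 (SD, n = 4 probe sets of 1 pair of arrays). In ALDH-negative cells it was 0.33, 0.08, -0.07 and 0.18, a mean of 0.13 ± 0.17 (SD, n = 4 probe sets). The ALDH difference in control cells was below 0 on all 4 probe sets, from -0.55 to -0.08.

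Such a spread inside a gene was also seen elsewhere in these arrays. Over probe sets of the same gene that were measured in the pair, the DOX differences in ALDH-positive cells ranged over 1.5 or more in 625 of 6455 genes (9.68%), against 4 of 6298 (0.0635%) in ALDH-negative cells. Ranges of RICTOR and TSC2, at 1.93 and 1.70 in the ALDH-positive pair, belonged to that group. The 3′ minus 5′ difference of the ACTB control probe sets, a sign of how evenly transcripts were copied, was 3.50 in ALDH-positive DOX, 3.11 in ALDH-positive control, 3.87 in ALDH-negative DOX and 3.70 in ALDH-negative control cells. The 3′ minus middle difference of ACTB was 1.40 in ALDH-positive DOX cells and 0.79 to 0.95 on the other arrays. For GAPDH the 3′ minus 5′ difference was 0.33 in ALDH-positive DOX, 0.56 in ALDH-positive control, 0.98 in ALDH-negative DOX and 0.87 in ALDH-negative control cells. The part of RNA quality in these probe set differences was not tested.

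Among the inputs to mTOR, IGF1R was lower with DOX in ALDH-positive cells on each of its measured probe sets. IGF1R encodes the receptor tyrosine kinase for insulin-like growth factors. Its brightest probe set, 225330_at, read 9.53 in ALDH-positive DOX, 10.02 in ALDH-positive control, 9.60 in ALDH-negative DOX and 9.79 in ALDH-negative control cells. The 3 measured probe sets differed by -0.49, -0.70 and -0.41 in ALDH-positive cells, a mean of -0.54 ± 0.15 (SD, n = 3 probe sets). In ALDH-negative cells the same probe sets differed by -0.20, -0.03 and 0.27, a mean of 0.02 ± 0.24 (SD, n = 3 probe sets). The ALDH-positive control array was the highest of the 4 on the pair of brighter probe sets. By the brightest probe set 8.93% of all genes were lower in the ALDH-positive pair and 9.37% in the ALDH-negative pair. None of the IGF1R differences reached 2-fold, and the other probe sets of IGF1R, at 3.90 to 4.96, were not measured.

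TSC2, the tuberin subunit of the complex that switches off RHEB and so mTORC1, gave opposite readings from its probe sets. Probe set 215735_s_at, of a kind that may match several transcripts, read 8.95 in ALDH-positive DOX, 7.39 in ALDH-positive control, 7.28 in ALDH-negative DOX and 7.35 in ALDH-negative control cells. The other, 215624_at, read 5.91, 6.05, 6.66 and 6.40 on the arrays in the same order. These levels lay near the limit of 6, and under it in ALDH-positive DOX cells. By the first, ALDH-positive DOX cells stood 1.56 above their control, with 0.593% of all genes higher, and by the second they stood -0.13 from it. In the ALDH comparison of DOX cells the first gave 1.67 and the second -0.75. The direction for TSC2 thus depends on the probe set, and the first alone reached 2-fold.

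RRAGD, the Rag GTPase that helps to recruit mTORC1 to lysosomes, was higher in ALDH-positive cells and lower with DOX on both arrays of each kind. Its brighter probe set, 221524_s_at, read 7.40 in ALDH-positive DOX, 8.13 in ALDH-positive control, 6.17 in ALDH-negative DOX and 6.76 in ALDH-negative control cells. The other, 221523_s_at, read 5.72, 6.40, 4.98 and 5.70 on the arrays in the same order, so that it was measured in ALDH-positive control cells only. Both ALDH-positive arrays exceeded both ALDH-negative arrays on each probe set, and each DOX array was below its control. The ALDH difference was 1.23 in DOX cells and 1.37 in control cells by the brighter probe set. With DOX it differed by -0.73 in ALDH-positive cells and by -0.59 in ALDH-negative cells. The dimmer probe set gave -0.68 in ALDH-positive cells and -0.72 in ALDH-negative cells, where its levels were under 6. Of all genes, 4.42% were lower than -0.73 in the ALDH-positive pair and 0.609% were lower than -0.59 in the ALDH-negative pair. Both probe sets are of the kind that may match several transcripts.

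FKBP5, a co-chaperone of the glucocorticoid receptor that also acts as a scaffold in AKT dephosphorylation, was lower with DOX on all probe sets in both fractions. Probe set 204560_at read 10.32 in ALDH-positive DOX, 11.53 in ALDH-positive control, 10.66 in ALDH-negative DOX and 11.15 in ALDH-negative control cells. On 224856_at the levels were 11.15 in ALDH-positive DOX, 12.18 in ALDH-positive control, 11.75 in ALDH-negative DOX and 12.08 in ALDH-negative control cells. On the brightest, 224840_at, they were 12.94, 13.26, 13.08 and 13.26 in the same order. On every probe set the ALDH-positive DOX array was lowest and the ALDH-negative DOX array next. The DOX differences of these probe sets were -1.21, -1.03 and -0.32 in ALDH-positive cells, a mean of -0.85 ± 0.47 (SD, n = 3 probe sets). They were -0.49, -0.33 and -0.18 in ALDH-negative cells, a mean of -0.33 ± 0.15 (SD, n = 3 probe sets). The smallest difference came from the probe set nearest to the top of the scale in both fractions. By that probe set 15.5% of all genes were lower in the ALDH-positive pair and 10.9% in the ALDH-negative pair. The ALDH difference was -0.60 to -0.14 in DOX cells and 0.00 to 0.38 in control cells.

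Among the outputs of mTORC1, EIF4EBP1 and ULK1 were higher in ALDH-positive cells under both treatments. EIF4EBP1 encodes 4E-BP1, which blocks cap-dependent translation until mTORC1 phosphorylates it. It had a level of 11.75 in ALDH-positive DOX, 11.31 in ALDH-positive control, 10.79 in ALDH-negative DOX and 10.66 in ALDH-negative control cells. Its ALDH difference was 0.96 in DOX cells and 0.65 in control cells, and its DOX difference was 0.44 in the ALDH-positive fraction and 0.13 in the ALDH-negative one. ULK1, the kinase that starts autophagy and is held back by mTORC1, had a level of 9.63 in ALDH-positive DOX, 8.59 in ALDH-positive control, 7.36 in ALDH-negative DOX and 7.43 in ALDH-negative control cells. Its ALDH difference was 2.27 in DOX cells, where 1.28% of all genes were higher, and 1.17 in control cells. With DOX it stood at 1.03 in ALDH-positive cells and at -0.07 in ALDH-negative cells. Both genes have 1 probe set, so no second reading exists within these arrays. With each array centred on its median the DOX difference of ULK1 in ALDH-positive cells was 0.90, under 2-fold.

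**Figure D2:**
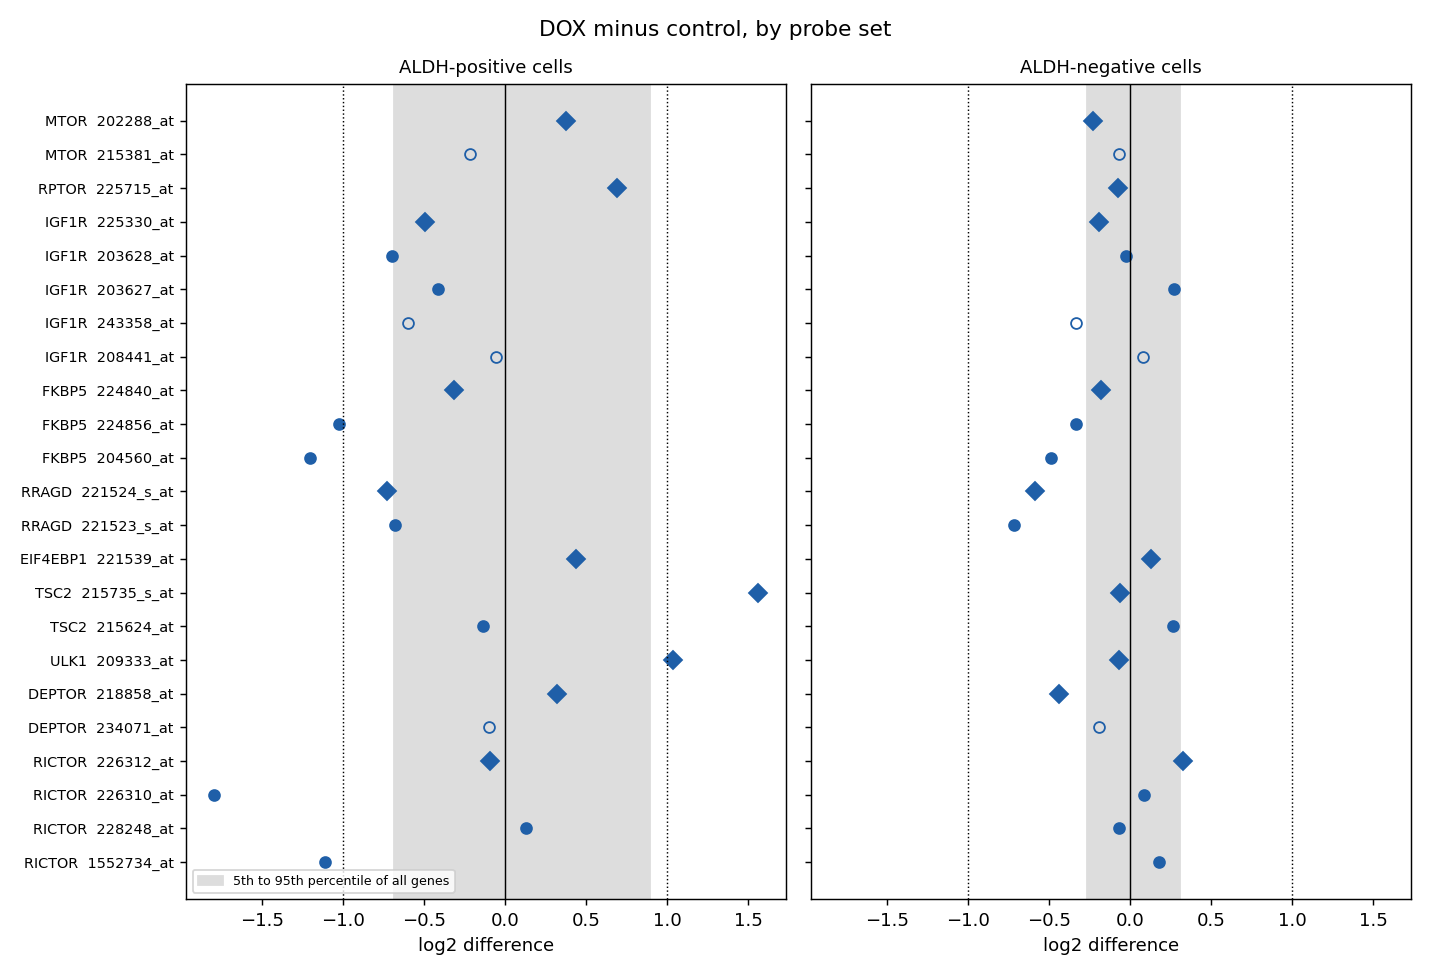
Difference of log2 levels, DOX minus control, for each probe set in ALDH-positive cells (left) and ALDH-negative cells (right), with the brightest probe set of a gene as a diamond, probe sets under 6 on all arrays open, the grey band from the 5th to the 95th percentile of all genes and dotted lines at 2-fold. FKBP5 and RRAGD lie below 0 in both fractions, IGF1R in ALDH-positive cells on all its probe sets, and TSC2 and RICTOR spread widely in ALDH-positive cells only.

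Counts were made with the brightest probe set of each gene and a call at 2-fold, an absolute log2 difference of 1, from a measured level. In the DOX comparison of ALDH-positive cells 2 of 10 members were called, TSC2 and ULK1, both higher, where 5.78% of all genes were called (3.47% higher and 2.3% lower). Of all calls in that pair 60.1% were higher as deposited, and 40.6% with arrays centred. The median of the members was 0.35, beside 0.12 for all genes, and it was 0.09 with the probe sets of a gene averaged. Over the measured probe sets it lay on the other side of 0, at -0.23 beside 0.06 for all probe sets, with 7 above 0 and 11 below, so that the members had no common direction. Counted by probe set, 18 of the members' 23 were measured in the pair, of which 2 were called higher (TSC2 and ULK1) and 3 lower (RICTOR 226310_at and both dimmer probe sets of FKBP5), where 9.56% of all probe sets were called (3.88% higher and 5.69% lower). In ALDH-negative cells no member was called, where 0.322% of all genes were (0.271% higher and 0.0508% lower), and the median of the members was -0.13 beside 0.00 for all genes. No probe set of a member was called there either, where 0.365% of all probe sets were called (0.255% higher and 0.11% lower).

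The DOX difference in ALDH-positive cells minus that in ALDH-negative cells reached 2-fold for TSC2 (1.62) and ULK1 (1.10), where 6.19% of all genes were called (3.78% higher and 2.4% lower). The higher share of those calls was 61.2% as deposited and 40.1% with arrays centred. For TSC2 the second probe set gave -0.40. By probe set the same quantity was -1.88 and -1.29 for RICTOR 226310_at and 1552734_at, where 10.2% of all probe sets were called (4.57% higher and 5.68% lower). FKBP5 gave -0.14, -0.70 and -0.72, IGF1R -0.30, -0.67 and -0.69, and RRAGD -0.14 and 0.04 by probe set. Over all measured probe sets of a gene, RRAGD was the one of these 3 whose DOX differences lay nearest to each other in the fractions. That order rests on its dimmer probe set, whose levels in ALDH-negative cells were under 6. By the brightest probe set FKBP5 and RRAGD both gave -0.14.

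**Figure D3:**
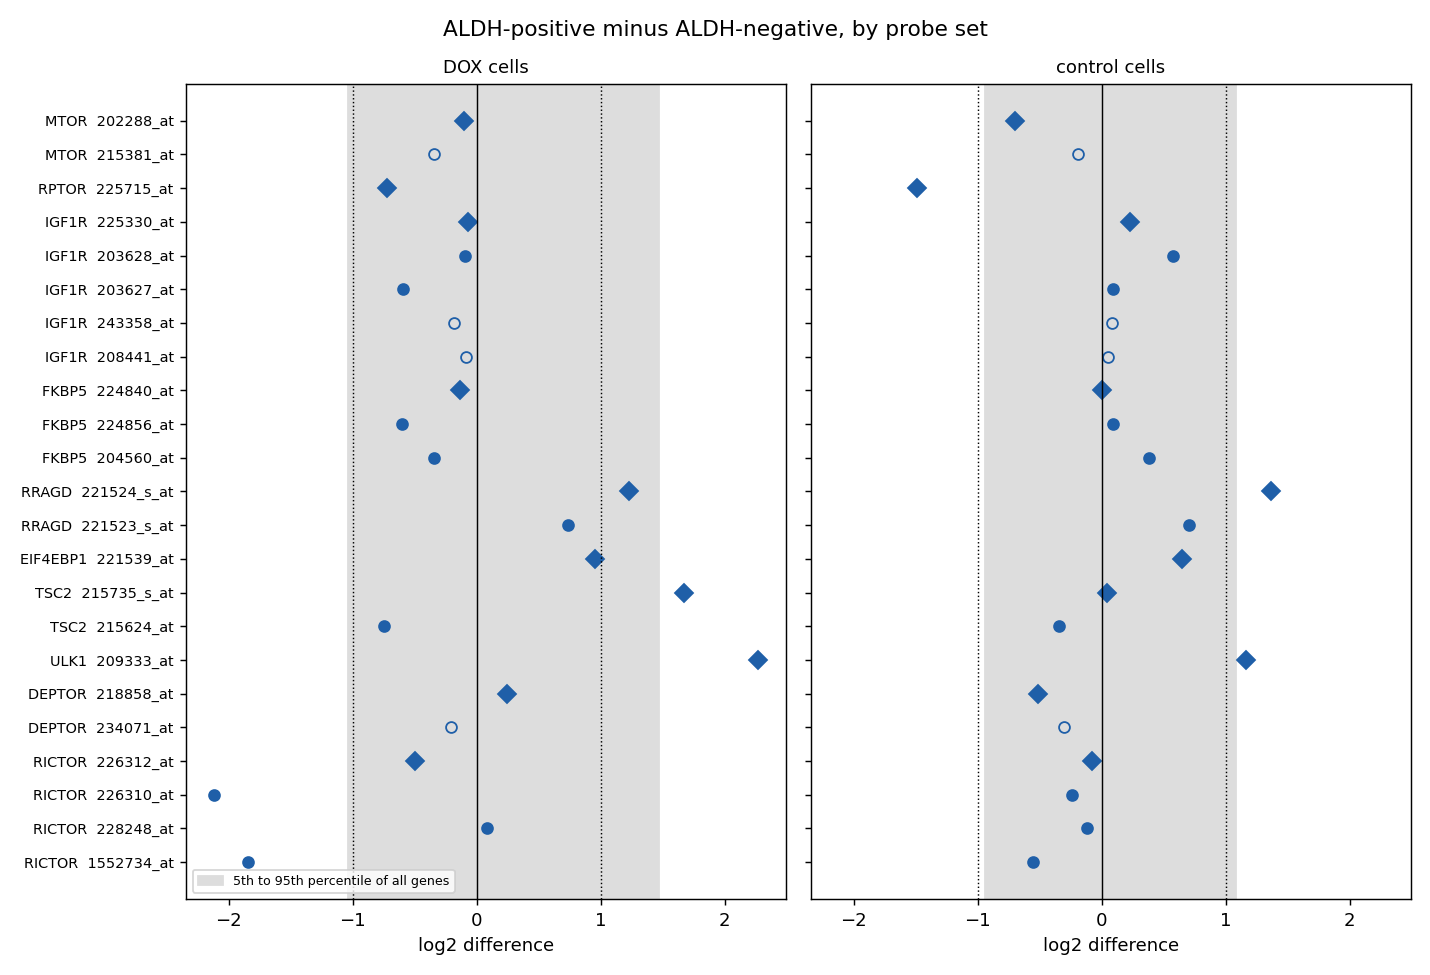
Difference of log2 levels, ALDH-positive minus ALDH-negative, for each probe set in DOX cells (left) and control cells (right), with symbols, band and lines as in the plot of DOX differences. ULK1 (2.27 and 1.17) and RRAGD 221524_s_at (1.23 and 1.37) exceed 2-fold in both, and RPTOR (-0.72 and -1.49) is below 0 in both.

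In the ALDH comparison of control cells 3 of 10 members were called, RRAGD and ULK1 higher and RPTOR lower, where 10.5% of all genes were called (6.09% higher and 4.4% lower). By probe set 3 of 19 were called, those of the same genes, where 11% of all probe sets were (5.72% higher and 5.3% lower). In that of DOX cells 3 were called, RRAGD, TSC2 and ULK1, all higher, where 16.7% of all genes were (11.4% higher and 5.32% lower). By probe set 3 were higher, those of the same genes, and 2 lower, both of RICTOR (226310_at and 1552734_at), where 18.9% of all probe sets were called (10.4% higher and 8.48% lower). The higher share of all calls there was 68.2% as deposited and 57.1% with arrays centred. The members' median was 0.09 in DOX cells, beside 0.08 for all genes, and 0.02 in control cells, beside 0.00. Over probe sets the median was -0.12 in DOX cells, beside 0.02 for all probe sets, and 0.04 in control cells, beside 0.00. The sign of the members' median thus depends on the probe sets taken, while ULK1 and RRAGD were above 0 and RPTOR below in both treatments.

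An additive limma model took in all 4 arrays, with a term each for the sort and for DOX, so that each treatment repeats the ALDH comparison and each fraction repeats the DOX comparison. It has 1 residual degree of freedom, nothing says that the arrays came from separate cultures, so that its p-values rest on a spread that could be technical, and it counts a response that differs between fractions as error. For the ALDH term 4 of 10 members passed at a Benjamini-Hochberg adjusted p under 0.05 over 12365 genes, where 23.1% of all genes passed (13.5% higher and 9.58% lower). ULK1 rose in ALDH-positive cells by 1.72 ± 0.31 (SE, limma adjusted p = 0.00213). RRAGD rose by 1.30 ± 0.28 (SE, limma adjusted p = 0.00576) and EIF4EBP1 by 0.80 ± 0.18 (SE, limma adjusted p = 0.00839). RPTOR fell, with -1.10 ± 0.29 (SE, limma adjusted p = 0.0179). All 4 kept their direction in both treatments. A pass in this model favours such agreement, so it is no separate support. TSC2, at 0.86 ± 0.36 (SE), missed the threshold with a limma adjusted p of 0.104, and MTOR, at -0.40 ± 0.28 (SE), with one of 0.342. The sign for TSC2 depends on the probe set, since 215624_at had an estimate of -0.55 ± 0.30 (SE) when probe sets were fitted.

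Fitted over all 30732 measured probe sets, the same limma model passed 3 probe sets of members in the ALDH term, where 11.7% of all probe sets passed (6.44% higher and 5.27% lower). They belonged to ULK1 (adjusted p = 0.0173), RRAGD (221524_s_at, adjusted p = 0.0232) and EIF4EBP1 (adjusted p = 0.0324). RPTOR had an adjusted p of 0.0507 and the dimmer RRAGD probe set one of 0.164, in the limma fit over probe sets. No member passed the DOX term of the gene fit, where 0.00809% of all genes (1 gene) passed. FKBP5 and RRAGD had an unadjusted limma p under 0.05, at 0.00998 for FKBP5 and 0.0345 for RRAGD, as had 5.27% of all genes. The DOX estimate was -0.25 ± 0.08 for FKBP5 and -0.66 ± 0.28 for RRAGD (SE, limma adjusted p = 0.855 and 0.916). A dimmer FKBP5 probe set, 204560_at, had an estimate of -0.85 ± 0.23 (SE, limma adjusted p = 0.928).

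**Figure D4:**
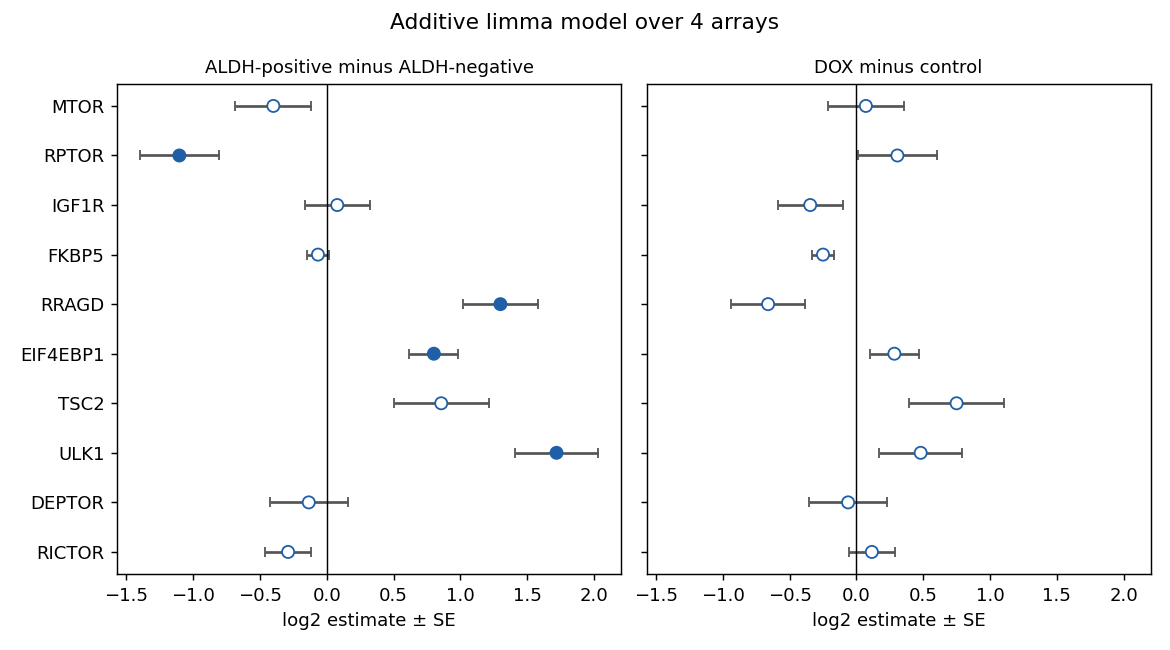
Estimates of the additive limma model over 4 arrays for the brightest probe set of each member, with bars of 1 SE, for the ALDH term (left) and the DOX term (right). Filled points passed at an adjusted p under 0.05, namely RPTOR, RRAGD, EIF4EBP1 and ULK1 in the ALDH term and none in the DOX term.

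Other genes of the pathway were taken from 10 lists with 119 places in all. Their values, counts and calls rest on the brightest probe set of each gene, and counts in the ALDH term are to be read against the 13.5% of all genes that passed higher and the 9.58% that passed lower. The partners of mTOR in its complexes (MLST8, AKT1S1, MAPKAP1, PRR5, PRR5L, TELO2 and TTI1) resembled MTOR and RPTOR in direction in some comparisons only. All 7 were above 0 with DOX in ALDH-positive cells, with a median of 0.58 beside 0.12 for all genes, and all 7 were below 0 in the ALDH comparison of control cells, with a median of -0.55 beside 0.00. For MAPKAP1, the SIN1 subunit of mTORC2, the 4 measured probe sets ranged from -0.30 to 0.53 with DOX in ALDH-positive cells and from -0.40 to 0.12 in the ALDH comparison of control cells, so that its sign rests on the probe set. It was named after its values were seen. These comparisons share the ALDH-positive control array. In the ALDH comparison of DOX cells 4 of the 7 were above 0 and 3 below, with a median of 0.02 beside 0.08 for all genes. With DOX in ALDH-negative cells they also parted 4 and 3, with a median of 0.01 beside 0.00. MTOR and RPTOR were below 0 in both. None of the 7 reached 2-fold in any pair or passed either term of the limma model. PRR5, a subunit of mTORC2, stood at -0.52 in the ALDH comparison of DOX cells and -0.94 in that of control cells. AKT1S1, which encodes the mTORC1 inhibitor PRAS40, differed by 0.88 with DOX in ALDH-positive cells and by -0.07 in ALDH-negative cells.

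Of 11 measured GATOR and KICSTOR genes, which pass on amino acid status to the Rag GTPases, 10 were above 0 with DOX in ALDH-positive cells, with a median of 0.33 beside 0.12 for all genes. Other probe sets of these genes read otherwise, down to -1.07 for WDR59, -1.23 for SEH1L and -0.37 for KICS2 in that pair, and up to 1.67 for NPRL3 in the ALDH comparison of DOX cells. WDR59, SEH1L and NPRL3 were named after their values were seen. By the brightest probe set none was called in any pair, KPTN (0.88) being the furthest there and KICS2 reaching 0.88 in the ALDH comparison of DOX cells. Among 11 Rag and Ragulator genes other than RRAGD none was called. RRAGB differed by 0.66 with DOX in ALDH-positive cells, and RRAGC, named after its values were seen, by 0.25. FNIP2, a partner of folliculin, was lower in ALDH-positive cells in the additive model, with -0.69 ± 0.22 (SE, limma adjusted p = 0.0427), the single one of these 11 to pass. In the list of the TSC complex and RHEB, RHEBL1 alone was called, at 1.11 in the ALDH comparison of DOX cells, and none of 4 passed. Its levels there were 6.57 in ALDH-positive cells and 5.46, under the limit of 6, in ALDH-negative cells.

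Of 12 measured sensors and energy kinases upstream of mTORC1, 5 rose in ALDH-positive cells in the ALDH term and none fell, where 13.5% of all genes passed higher and 9.58% lower. SESN2, a leucine sensor of the sestrin family, rose by 2.21 ± 0.26 (SE, limma adjusted p = 0.00012), and it had levels of 10.20 in ALDH-positive DOX, 10.15 in ALDH-positive control, 8.18 in ALDH-negative DOX and 7.76 in ALDH-negative control cells. PRKAG1 and PRKAB2, regulatory subunits of AMPK, rose by 0.94 ± 0.20 and 0.99 ± 0.22 (SE, limma adjusted p = 0.00595 and 0.00721). DDIT4, which encodes the mTORC1 inhibitor REDD1, rose by 0.71 ± 0.08 and SESN3 by 0.59 ± 0.19, both named after their values were seen. By probe set the ALDH difference of SESN3 ranged from -0.36 to 0.72 in DOX cells and from 0.44 to 0.86 in control cells. SESN1, another sestrin, was instead called lower in ALDH-positive control cells (-1.15) and differed by 1.18 with DOX in ALDH-positive cells.

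Of 18 measured IGF and PI3K-AKT genes 4 rose in the ALDH term and none fell, a share near that of all genes, of which 23.1% passed in either direction and 13.5% higher. IGFBP3, an IGF-binding protein, rose by 2.16 ± 0.27 (SE, limma adjusted p = 0.00019) and IRS1, the adaptor below IGF1R, by 1.34 ± 0.26 (SE, limma adjusted p = 0.00362). IGFBP2 rose by 1.53 ± 0.34 and INSR, named after its value was seen, by 0.49 ± 0.14. By probe set the ALDH difference of INSR ranged from -0.44 to 1.21 in DOX cells and from 0.44 to 0.75 in control cells. With DOX, IGFBP2 and IGFBP6 were called in ALDH-positive cells, at 1.38 and 1.16, and differed by -0.04 and 0.09 in ALDH-negative cells. The estimate of IGF1R itself in the ALDH term was 0.08 ± 0.24 (SE, limma adjusted p = 0.862).

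Among translation genes downstream of mTORC1 none passed the test as EIF4EBP1 did. None of 10 measured members was called in any pair or passed, the furthest being EIF4E, the cap-binding protein that 4E-BP1 holds, at -0.47 in the ALDH comparison of DOX cells, and EIF4EBP2 at -0.44 in that of control cells. Of 14 measured autophagy genes 5 rose in the ALDH term and none fell, where 13.5% of all genes passed higher and 9.58% lower. MITF rose by 1.64 ± 0.27, WIPI1 by 1.24 ± 0.23, GABARAPL1 by 1.05 ± 0.27, RB1CC1 by 0.74 ± 0.22 and MAP1LC3B, named after its value was seen, by 0.43 ± 0.14 (SE, limma adjusted p from 0.00116 to 0.0364). RB1CC1 encodes FIP200, a partner of ULK1, and GABARAPL1 and MAP1LC3B encode proteins of the autophagosome membrane. With DOX in ALDH-positive cells none of the 14 was called, and their median was -0.06 beside 0.12 for all genes.

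Targets of mTORC2 and the glucocorticoid receptor were read beside RICTOR and FKBP5. SGK1, a kinase activated by mTORC2, differed by -1.30 with DOX in ALDH-positive cells (9.50 against 10.80) and by 0.23 in ALDH-negative cells (11.79 against 11.56). It fell in the ALDH term, with -1.53 ± 0.29 (SE, limma adjusted p = 0.00274). FOXO4, a transcription factor under AKT control, rose by 1.31 ± 0.32 (SE, limma adjusted p = 0.0114), while the other 4 measured genes of the list did not pass. Its levels in ALDH-negative cells, 5.91 with DOX and 5.84 in control, were under the limit of 6. It was called at 1.13 with DOX in ALDH-positive cells and at 1.84 in the ALDH comparison of DOX cells. Among 10 measured FKBP and glucocorticoid receptor genes 3 rose and 3 fell in the ALDH term, where 13.5% of all genes passed higher and 9.58% lower. KLF9 and ZBTB16 rose by 1.16 ± 0.20 and 1.60 ± 0.28 (SE, limma adjusted p = 0.00151 and 0.00171), and TSC22D3, named after its value was seen, by 0.74 ± 0.10. The estimate of FKBP5 itself in that term was -0.07 ± 0.08 (SE), and it did not pass. DUSP1 fell, with -0.64 ± 0.16, as did HSP90AA1 and FKBP1A, both named after their values were seen, with -0.63 ± 0.09 and -0.26 ± 0.09. With DOX in ALDH-positive cells, KLF9 and DUSP1 differed by -0.81 and -0.88, ZBTB16 by 0.84, TSC22D3 by 0.07 and FKBP8 by 1.02. In ALDH-negative cells the differences of these genes lay between -0.20 and -0.03. NR3C1, the receptor itself and also named after its values were seen, differed by -0.31 with DOX in ALDH-positive cells and by 0.21 in ALDH-negative cells. Probe sets of 1 gene disagreed here too: those of KLF9 ranged from -0.86 to 1.08 with DOX in ALDH-positive cells, those of FKBP1A from -1.63 to -0.04, and those of IRS1 from -0.71 to 1.16 in the ALDH comparison of control cells.

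**Figure D5:**
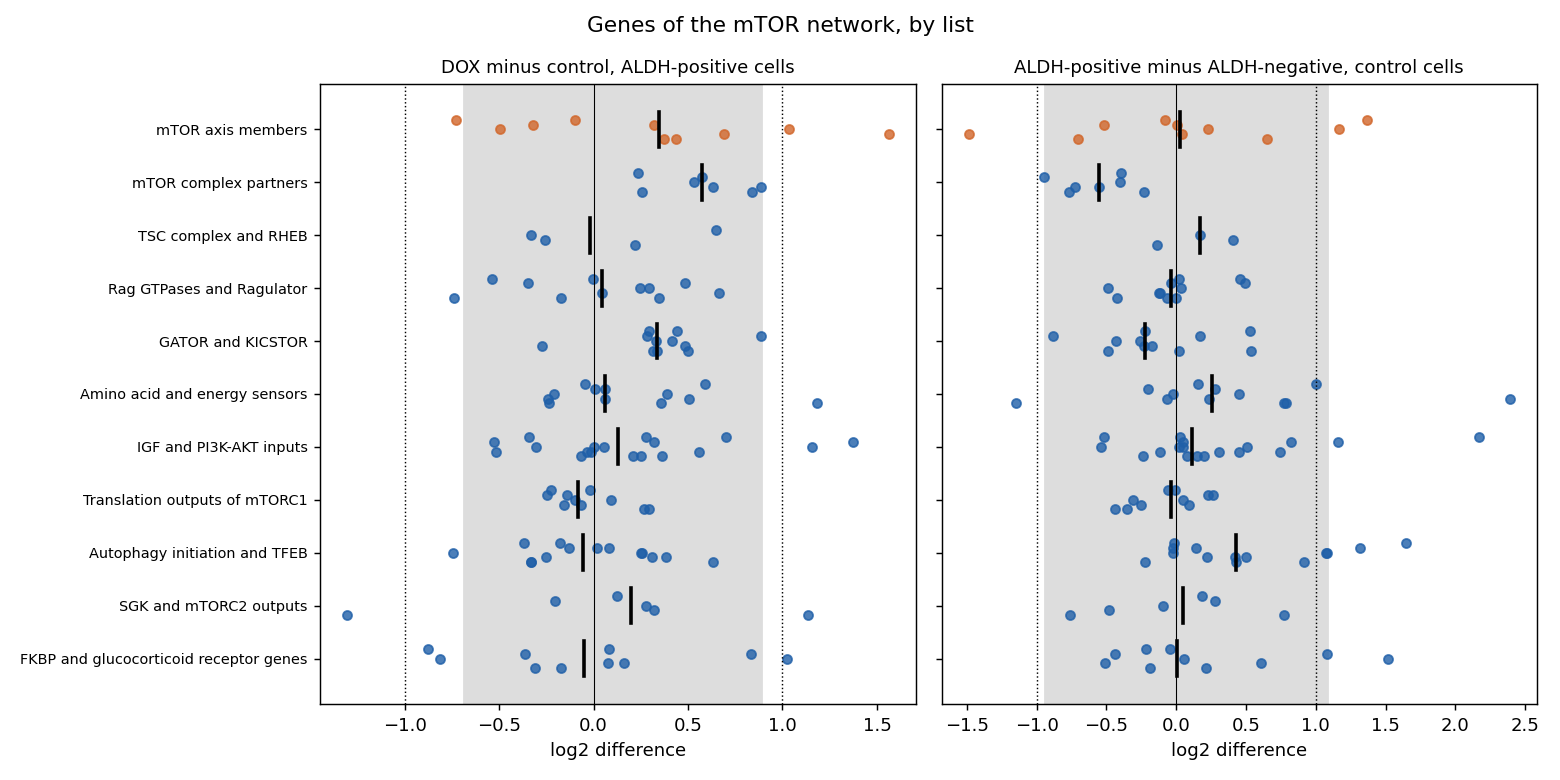
Difference of log2 levels for each measured gene of the members (orange) and of 10 further pathway lists (blue), for DOX minus control in ALDH-positive cells (left) and ALDH-positive minus ALDH-negative control cells (right), with the median of a list as a black bar, the grey band from the 5th to the 95th percentile of all genes and dotted lines at 2-fold. The partners of mTOR lie on opposite sides of 0 in the panels, with medians of 0.58 and -0.55, which share the ALDH-positive control array.

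For the 5 members whose brightest probe set spanned 1 or more over the arrays, the nearest profiles were sought among 12365 genes by the Euclidean distance of log2 levels centred on their own mean, over only 4 arrays. The nearest to ULK1 were GLDN (distance 0.06) and TMEM178B (0.12), and the nearest to RRAGD were EDN1 (0.10) and TMEM200C (0.16). APCDD1L (0.05) and CFAP119 (0.06) lay closest to RPTOR, and SIRT3 (0.02) and FAM86B2-DT (0.05) to EIF4EBP1. For the brighter TSC2 probe set they were EMILIN3 (0.11) and LRP1 (0.14). EDN1, which encodes endothelin-1, showed the RRAGD pattern at levels of 10.74 in ALDH-positive DOX, 11.34 in ALDH-positive control, 9.46 in ALDH-negative DOX and 10.02 in ALDH-negative control cells.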

How the data were processed

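RNA was hybridised to Affymetrix arrays, 1 for each of 4 groups. The deposited values are log2 probe set levels that the authors made with RMA, per the submitters' processing notes; the RMA release is unstated in those notes, and no scanner files were used. The scale is read from the range of the values. Of 54675 probe sets, 62 were controls. A platform annotation of 2016 gave 41097 a single gene, 1801 several and 11777 none, and symbols were updated by gene identifier for 41043. The probe set with the highest mean stood for a gene, and every member probe set was also read. Differences were called at 2-fold where either array of the pair reached 6 on the log2 scale. The additive model used limma 3.58.1 (lmFit, eBayes with trend, prior degrees of freedom 11.7) in R 4.3.3, with Benjamini-Hochberg adjustment over all 12365 measured genes. Steps were tested on simulated data. The number of arrays limits the precision.

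The members and lists were chosen with earlier results of these data known. Named are all members, up to 4 called genes of each list (otherwise the 2 furthest) and the 2 nearest profiles of members spanning 1 or more. Alternatives were centring, cyclic loess, no filter, a filter at 7, a floor at 6, averaging the probe sets of a gene, leaving out shared probe sets (_s_at, _x_at), 1.5-fold, and eBayes without trend or robust. Python 3.11.15, numpy 2.4.6 and pandas 2.3.3 were used.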

Additional observations from a re-analysis of the deposited data

Results flagged for a closer look

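Several members differed in opposite directions under the same contrast on every measured probe set, with 1 array a group, so that none of these differences was tested. The DOX difference was above 0 in ALDH-positive and below 0 in ALDH-negative cells for ULK1, RPTOR, DEPTOR and MTOR. These differences of differences were 1.10, 0.77, 0.76 and 0.60 on the log2 scale, where only that of ULK1 reached 2-fold. Each of these genes had 1 measured probe set. In ALDH-negative cells ULK1 and RPTOR were near 0, at -0.07 and -0.08. The ALDH-positive pair carries a shift of all genes of 0.12. The ALDH difference, control minus DOX cells, changed sign for DEPTOR (-0.76), IGF1R (0.30) and FKBP5 (0.14). For FKBP5 the ALDH difference in control cells was 0.00 by its brightest probe set.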

How the results depend on the processing

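No replicate could be left out, since each group held 1 array. No paired analysis was possible because each group held 1 array and so the groups share fewer than 2 replicate numbers. The median of the members with DOX in ALDH-positive cells, 0.35, was 0.09 with the mean of probe sets. In the ALDH comparison of DOX cells, 0.09 turned to -0.09 with the mean of probe sets, -0.10 without shared probe sets and -0.03 with centring, and in that of control cells 0.02 turned to -0.08 without shared probe sets. In the DOX comparison of ALDH-positive cells 1 member instead of 2 was called with centring, cyclic loess, the mean of probe sets or no shared probe sets, and 4 at 1.5-fold. Over all genes, that pair had 264 up and 387 down of 12126 with centring and 378 and 297 of 12146 with cyclic loess. With the mean of probe sets it had 248 and 246 of 11310, and without shared probe sets 391 and 271 of 9580. As deposited it had 422 and 280 of 12151. In ALDH-negative cells 1 member was called at 1.5-fold, against 0. In the ALDH comparisons 5 members were called at 1.5-fold in DOX and in control cells, against 3 each. Without shared probe sets 1 was called in DOX and 2 in control cells, and with the mean of probe sets 2 in DOX cells. Over all genes, calls without shared probe sets were 1173 up and 618 down of 9664 in DOX cells. In control cells they were 598 and 528 of 9520. With the mean of probe sets they were 987 and 585 of 11400 in DOX cells. As deposited they were 1396 and 650 of 12228 in DOX cells and 734 and 530 of 12052 in control cells. The difference of DOX differences called 1 member with centring, the mean of probe sets or no shared probe sets, and 5 at 1.5-fold, against 2. Over all genes it called 295 up and 440 down of 12358 with centring, and 270 and 246 of 11529 with the mean. Without shared probe sets the calls were 444 and 285 of 9807, against 468 and 297 of 12365 as deposited. The member counts at 1.5-fold are to be read beside the calls over all genes, which also rose. With DOX these were 1780 up and 828 down of 12151 genes in ALDH-positive cells. In the ALDH-negative pair they were 136 and 73 of 11819. The ALDH comparison had 2805 up and 1542 down of 12228 in DOX cells, and 1664 and 1478 of 12052 in control cells. For the difference of DOX differences they were 1827 and 927 of 12365. TSC2 turned without its shared probe set, to -0.13 with DOX in ALDH-positive cells, -0.75 in the ALDH comparison of DOX cells and -0.40 in the difference of DOX differences. In the additive model the ALDH term passed 2 members without a filter on level, against 4: the limma adjusted p was then 0.0875 for RPTOR and 0.054 for EIF4EBP1 (0.0584 without trend), over ranges of 0.0132 to 0.0875 and 0.00281 to 0.0584. ULK1 (0.000256 to 0.0455) and RRAGD (0.00386 to 0.0353, with no value without shared probe sets) passed under all alternatives run in the limma fit over genes, though not in that over probe sets. Over all genes, that term passed 1672 higher and 1184 lower, and 767 and 410 without a filter. Of the members' probe sets, 3 passed as reported and 0 without a filter or without trend, in alternatives chosen after seeing the data. No member difference changed sign under centring or cyclic loess, of 50 each. The bright probe sets of TSC2 and RRAGD may bind other transcripts, and the brightest of FKBP5 lies near the top of the scale.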
